A study of Mus musculus with 8 samples.

Results

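Interferon-stimulated genes were followed in first molars of mouse pups that lacked Wdr72, a WD-repeat protein needed for the maturation of enamel, and of wild-type pups. The set held 32 genes, listed by symbol as known targets or carriers of the interferon response, out of 54532 genes in the deposited table, and every one of the 32 had a row there. The KO group held 4 libraries (KO 1, 3, 4 and 5) of Wdr72-/- mice from a colony obtained from the UC Davis Mouse Biology Center, and the WT group held 4 libraries (WT 2, 3, 4 and 5) of wild-type mice, both on the C57BL/6 strain and both kept at UCSF. The age label gives postnatal day 12 for both groups, while the dissection protocol gives day 13. The pulp was taken out and the rest of the molar was homogenised whole, so the RNA is that of a mixed tissue, although the labels name ameloblasts, the epithelial cells that form enamel. The labels give neither the part of Wdr72 that was deleted nor the number of pups behind a library. The p-values below thus weigh a group difference only against the spread between libraries, and the spread between single pups is not known.

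Interferons are secreted proteins that cells release when they sense viral or misplaced nucleic acid. Type I and type III interferons signal through JAK kinases to a complex that holds STAT2 and IRF9 and binds the interferon-stimulated response element (ISRE) in the promoters of target genes, while interferon gamma acts mainly at the gamma-activated site (GAS). Most targets encode antiviral proteins, sensors or parts of the signalling chain itself, and many are transcribed at a low level without any infection. No infection or interferon treatment is named in the labels.

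The libraries held 17084475 to 21887462 counted reads, of which the 32 genes took 0.0192% to 0.023%, or 3533 to 4733 reads. Wdr72 itself was at 102, 37.8, 24.9 and 15.8 CPM in KO 1, 3, 4 and 5 and at 173 to 327 CPM in WT, where CPM is the usual count of a gene relative to the library total, here scaled by TMM. KO 1 thus had more Wdr72 than the other KO libraries, and 1 of the alternatives leaves out KO 1 and KO 5 together. All 8 ameloblast markers checked had reads, with a summed level of 58920 to 80590 CPM in KO and 52540 to 96390 CPM in WT. The odontoblast markers summed to 32060 to 59320 CPM in KO and 28980 to 56920 CPM in WT, so cells of the dentin side were also present in both groups. KO 5 stood apart, with a mean correlation of 0.965 with the other libraries against 0.98 to 0.983 for the rest.

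Many promoters of the set carry the letters of the ISRE, and a few are shown here because the genes differ in it. RefSeq promoters on GRCm38.p6, each with 250 bases before the annotated start and 50 after it, were found for 25 of the 32 genes. The ISRE was searched on both strands as the letters GAAA, any 2 bases, and GAAA again, so that matches can overlap. It occurred in at least 1 promoter of 16 of the 25 genes (64%), against 3.99% of all 27025 gene symbols in the table. The GAS letters TTCNNNGAA, with N as any base, read alike on both strands and occurred in 5 of the 25 (20%), against 9.55% of all symbols. A match of letters is a description and not a binding site, and the set was named for its response to interferon, so the share is no finding about these molars. In the sequences, written 5' to 3' in the direction of the gene, capitals mark the ISRE letters. They are those of Ifit1, Ifih1 and Ifi35, the genes with the smallest p below, and of Isg15. Isg15 held 3 overlapping matches at offsets -78, -72 and -66 from the start, Ifit1 held 2 at -104 and -85, Ifih1 held 1 at 32, inside the transcribed part, and Ifi35 held none, though its entry has a GAS match at 7.
Ifit1, chr19:34640639-34640938, plus strand: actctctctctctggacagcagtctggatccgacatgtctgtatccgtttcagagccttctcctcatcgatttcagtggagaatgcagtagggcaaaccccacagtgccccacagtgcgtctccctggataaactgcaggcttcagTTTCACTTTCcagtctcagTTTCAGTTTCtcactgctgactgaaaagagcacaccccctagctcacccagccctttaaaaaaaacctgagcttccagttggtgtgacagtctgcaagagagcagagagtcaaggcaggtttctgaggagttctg
Ifih1, chr2:62646206-62646505, minus strand: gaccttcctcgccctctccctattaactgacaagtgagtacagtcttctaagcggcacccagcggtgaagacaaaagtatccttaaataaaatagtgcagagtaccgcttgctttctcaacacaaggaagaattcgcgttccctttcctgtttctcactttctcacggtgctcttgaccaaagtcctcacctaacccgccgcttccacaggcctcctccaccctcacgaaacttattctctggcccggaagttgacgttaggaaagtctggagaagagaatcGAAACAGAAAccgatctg
Ifi35, chr11:101448162-101448461, plus strand: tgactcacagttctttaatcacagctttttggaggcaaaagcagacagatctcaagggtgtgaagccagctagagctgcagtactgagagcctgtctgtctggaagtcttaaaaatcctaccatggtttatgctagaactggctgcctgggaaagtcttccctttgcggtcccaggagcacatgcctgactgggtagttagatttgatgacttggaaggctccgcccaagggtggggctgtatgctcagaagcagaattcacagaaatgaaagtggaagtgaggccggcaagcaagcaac
Isg15, chr4:156200769-156201068, minus strand: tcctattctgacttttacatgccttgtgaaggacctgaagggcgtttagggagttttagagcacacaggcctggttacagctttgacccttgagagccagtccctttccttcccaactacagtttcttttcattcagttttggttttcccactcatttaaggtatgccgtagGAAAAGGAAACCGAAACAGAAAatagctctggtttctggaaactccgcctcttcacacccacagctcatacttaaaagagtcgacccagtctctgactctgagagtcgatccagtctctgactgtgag
The neighbours Ifit3 and Ifit3b are near-copies, and the 60 bases around their paired ISRE matches had 0 differences. These stretches lie before the annotated starts, so they say nothing about how RNA reads divide between the 2 genes.
Ifit3, chr19:34583365-34583424, plus strand: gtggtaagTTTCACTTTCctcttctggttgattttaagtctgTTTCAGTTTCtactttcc
Ifit3b, chr19:34607761-34607820, plus strand: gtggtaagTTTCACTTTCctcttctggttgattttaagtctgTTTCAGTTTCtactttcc

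None of the 32 interferon-stimulated genes passed the test between KO and WT molars. Of the 32, 29 had enough reads to be tested, and 0 had an adjusted p under 0.05 by edgeR's quasi-likelihood test with Benjamini-Hochberg adjustment over 16205 genes. Of all genes tested, 0.0309% passed, made up of 0.0123% of all genes higher and 0.0185% of all genes lower in KO. DESeq2 and limma voom also called 0 of the 29, though they called 464 and 1065 genes over the whole table. The smallest adjusted p among them was 0.23, for Ifit1. At an unadjusted p under 0.05 there were 3 of 29 (10.3%), with Ifit1 and Ifi35 higher in KO and Ifih1 lower, against 15.7% of all genes tested, where 8.7% were higher and 6.98% lower. In 5 of the 29 (17.2%) the KO and WT values did not overlap, 4 with KO higher and 1 with KO lower, against 10.9% of all genes tested, 5.5% higher and 5.44% lower. The share at an unadjusted p lay below that of all genes, and the share without overlap lay above it. Neither is read as a result about the set, since the counts were only 3 and 5 genes. The median log2 fold change, KO minus WT, was 0.16 over the 29 genes and 0.021 over all genes tested, and 21 of the 29 (72.4%) were above 0, against 53.1% of all genes. In bulk RNA of this kind, fewer cells of a type and less RNA per cell cannot be told apart.

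The precision differed by level. The standard error of the log2 fold change was between 0.12 and 0.44, with a median of 0.22. In 23 of the 29 genes the 95% interval of the log2 fold change lay between -1 and 1, so that a 2-fold difference in either direction was outside it. The interval reached 1 or more in 5 genes and -1 or less in 1 gene. A p that misses the threshold does not show that the groups were alike, and the intervals give the range that these libraries leave.

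**Figure D1:**
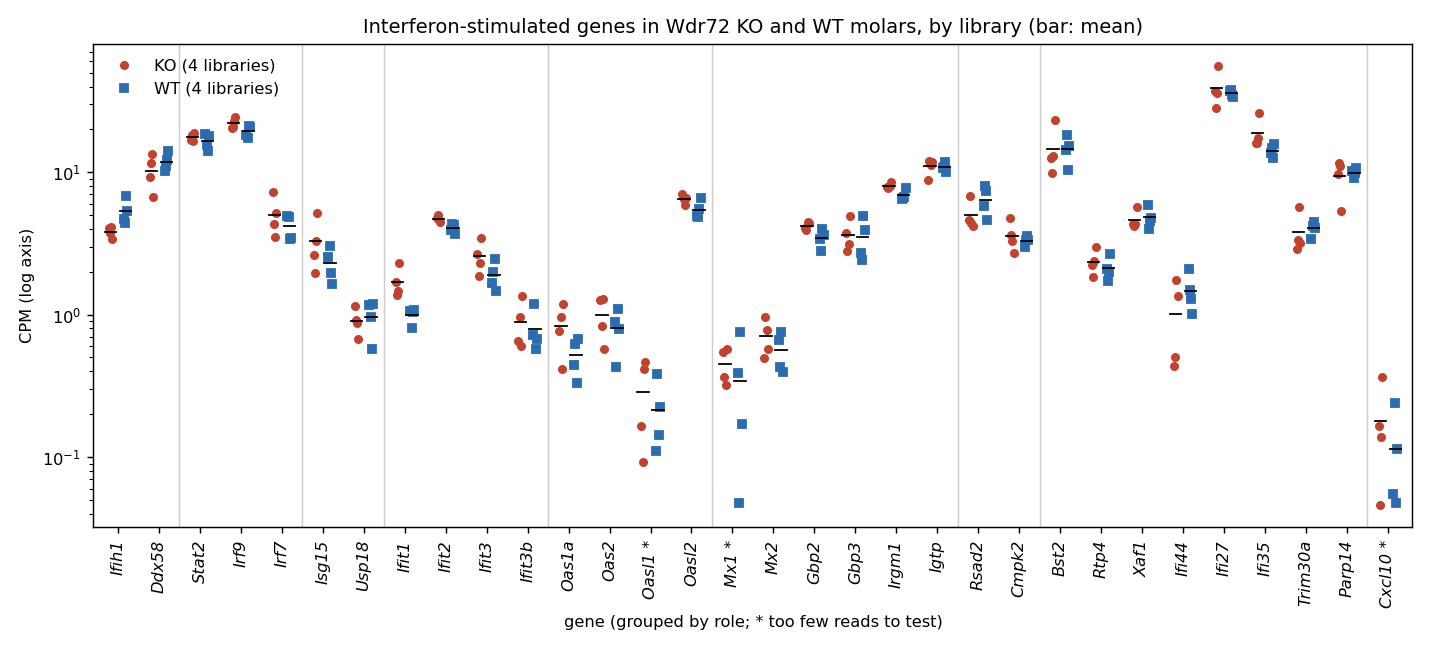
Level of each of the 32 genes in CPM (log axis), by library, with KO as circles on the left and WT as squares on the right of each gene and a bar at the mean of 4 libraries; genes marked with a star had too few reads to test. Ifi27 was highest at 28.3 to 55.8 CPM in KO and 33.5 to 37.7 CPM in WT, and for most genes the circles and squares cover the same range.

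Levels between genes were compared per length, as RPKM from the deposited gene lengths. Ifi27, a small hydrophobic membrane protein, was the most abundant of the set at 26.8 ± 7.96 RPKM in KO and 24.4 ± 1.27 RPKM in WT (SD, n = 4 each). Its level was above that of 88.2% of the protein-coding genes tested. Bst2, or tetherin, which holds budding virus at the cell surface, followed at 16.2 ± 6.46 RPKM in KO and 16.1 ± 3.61 RPKM in WT, and Ifi35 at 10.9 ± 2.76 RPKM in KO and 8.22 ± 0.835 RPKM in WT. These 3 and Igtp were the only members of the set above the middle of the protein-coding genes tested, at percentiles 88.2, 80.5, 67.6 and 51.8. At the other end were Cxcl10, Oasl1, Mx1, Mx2, Oas2 and Ifi44, all below the percentile of 4 in RPKM.

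The cytosolic RNA sensors were at a modest level in both groups. Ifih1 encodes MDA5, which recognises long double-stranded RNA. It had 4.05, 3.72, 4.10 and 3.38 CPM in KO 1, 3, 4 and 5, against 4.71, 4.39, 6.84 and 5.31 CPM in WT 2, 3, 4 and 5. The KO values all lay below the WT values, and WT 4 was the highest library. Ifih1, at 62595798 to 62646255 on chromosome 2, thus had a log2 fold change of -0.48 (SE 0.19, 95% interval -0.89 to -0.074; edgeR, adjusted p = 0.26). Without WT 4 it was -0.34 (adjusted p = 0.46), and with an offset for GC content and transcript length, an alternative chosen after seeing the data, it was -0.31 (adjusted p = 0.44). In both of these fits Ifih1 no longer had an unadjusted p under 0.05. Ddx58 encodes RIG-I, which recognises short RNA ends with a triphosphate. It was at 10.2 ± 2.95 CPM in KO and 11.9 ± 1.67 CPM in WT, with overlapping groups (log2 fold change -0.21, SE 0.20).

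The transcription factors of the response differed little. Irf9, the DNA-binding part of its complex with STAT2, had 20.5, 20.8, 22.7 and 24.4 CPM in KO 1, 3, 4 and 5, against 18.2, 17.4, 21.03 and 20.9 CPM in WT 2, 3, 4 and 5. Its groups overlapped by a narrow margin, in that KO 1 and KO 3 lay below WT 4 and WT 5. That left a log2 fold change of 0.19 (SE 0.12, 95% interval -0.061 to 0.44; edgeR, adjusted p = 0.43). Rnf31 overlaps Irf9 on the same strand with 114% as many reads, so the count of Irf9 is uncertain. Stat2, the other partner, was at 17.6 ± 1.04 CPM in KO and 16.6 ± 2.07 CPM in WT. Irf7, the factor that amplifies type I interferon production, was at 5.05 ± 1.60 CPM in KO and 4.17 ± 0.846 CPM in WT, and KO 1 was its highest library at 7.22 CPM. Phrf1 overlaps Irf7 on the other strand with 1480% as many reads, and since the strand setting of the counting is not given in the sources used here, that count is uncertain too.

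Isg15 encodes a ubiquitin-like protein that is joined to other proteins, and Usp18 is the protease that removes it and that also damps the type I receptor. Isg15 had 2.63, 1.97, 3.31 and 5.15 CPM in KO 1, 3, 4 and 5, against 2.55, 3.05, 1.95 and 1.64 CPM in WT 2, 3, 4 and 5. Only KO 4 and KO 5 lay above every WT library. Isg15 had a log2 fold change of 0.50 (SE 0.31, 95% interval -0.18 to 1.18; edgeR, adjusted p = 0.44), which was 0.20 without KO 5 (adjusted p = 0.80). Usp18 was at 0.904 ± 0.194 CPM in KO and 0.968 ± 0.286 CPM in WT, from 12 to 21 reads a library.

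The IFIT genes, whose products bind foreign RNA and block its translation, lie together on chromosome 19 between 34550694 and 34650009 on GRCm38, as the deposited table gives it. All 4 had positive log2 fold changes, with a median of 0.32. Ifit1 had 1.70, 1.38, 1.47 and 2.29 CPM in KO 1, 3, 4 and 5, against 1.05, 0.811, 1.04 and 1.07 CPM in WT 2, 3, 4 and 5. Each KO library was above each WT library, and KO 5 was the highest. These levels came from 30 to 44 reads in the KO libraries and from 17 to 22 reads in the WT libraries. The resulting log2 fold change of 0.77 (SE 0.27, 95% interval 0.18 to 1.37; edgeR, adjusted p = 0.23) was the largest among the 29 tested genes. Without KO 5 it was 0.60 (adjusted p = 0.36) and no longer at an unadjusted p under 0.05, and with the GC and length offset it was 0.87 (adjusted p = 0.19).

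Ifit2 had 4.76, 5.002, 4.65 and 4.47 CPM in KO 1, 3, 4 and 5, against 3.93, 4.30, 4.27 and 3.67 CPM in WT 2, 3, 4 and 5. Its groups did not overlap either, with KO 5 the lowest KO library and WT 3 the highest WT library. Despite this the log2 fold change was only 0.22 (SE 0.16; edgeR, adjusted p = 0.49). Ifit3, a partner that stabilises IFIT1 in human cells, was at 2.57 ± 0.658 CPM in KO and 1.90 ± 0.438 CPM in WT, and its near-copy Ifit3b at 0.893 ± 0.346 CPM in KO and 0.79 ± 0.276 CPM in WT. Of all 50-base words in the longest transcript of Ifit3, 51.2% also occur in Ifit3b, and 44.5% of those of Ifit3b occur in Ifit3, so the division of reads between the pair is uncertain.

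The OAS genes encode enzymes that make the second messenger that activates RNase L, and the OAS-like genes encode relatives, some of which lack that activity. Oas1a had 0.766, 0.964, 0.414 and 1.196 CPM in KO 1, 3, 4 and 5, against 0.443, 0.621, 0.332 and 0.678 CPM in WT 2, 3, 4 and 5. KO 4 lay within the WT values and the other KO libraries above them. Oas1a had a log2 fold change of 0.68 (SE 0.41, 95% interval -0.21 to 1.57; edgeR, adjusted p = 0.42). The counts were 7 to 23 reads a library, and 57.6% of the 50-base words of Oas1a also occur in Oas1g, so it is uncertain. Oas2 was at 0.986 ± 0.348 CPM in KO and 0.8 ± 0.277 CPM in WT. Oasl2 was at 6.49 ± 0.459 CPM in KO and 5.47 ± 0.821 CPM in WT (log2 fold change 0.25, SE 0.16), with WT 5 inside the KO values. Oasl1 was not tested, with 23 reads in the KO libraries together and 17 in the WT libraries.

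Large GTPases of the set act on viral capsids and on vacuoles that hold bacteria. Gbp2, a guanylate-binding protein, had 4.05, 3.95, 4.47 and 4.42 CPM in KO 1, 3, 4 and 5, against 3.38, 2.82, 3.99 and 3.62 CPM in WT 2, 3, 4 and 5. WT 4 alone reached into the KO values. Its log2 fold change was 0.29 (SE 0.18; edgeR, adjusted p = 0.43). Irgm1, an immunity-related GTPase that regulates the others of its family, had 7.82, 7.80, 7.97 and 8.58 CPM in KO 1, 3, 4 and 5, against 6.53, 6.59, 6.74 and 7.80 CPM in WT 2, 3, 4 and 5. The groups of Irgm1 were apart by less than the last digit shown, between KO 3 and WT 5. Irgm1 had a log2 fold change of 0.22 (SE 0.13, 95% interval -0.074 to 0.51; edgeR, adjusted p = 0.43).

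The other GTPases differed by less than their spread between libraries. Igtp was at 10.99 ± 1.49 CPM in KO and 10.85 ± 0.775 CPM in WT, and Gbp3 at 3.65 ± 0.942 CPM in KO and 3.498 ± 1.14 CPM in WT. Irgm2 lies over Igtp on the same strand and had 60.6% as many reads, so reads may be assigned to either. Mx2 was at 0.703 ± 0.213 CPM in KO and 0.562 ± 0.178 CPM in WT. Mx1, which blocks influenza virus in mice that carry an intact copy and is defective in C57BL/6 and most other inbred strains, was not tested, with 36 reads in KO and 27 in WT.

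Rsad2 and Cmpk2 are neighbours on chromosome 12 that act together on nucleotides. Rsad2 encodes viperin, which makes a chain-terminating nucleotide, and Cmpk2 a mitochondrial kinase that supplies its substrate. Rsad2 had 4.65, 6.84, 4.42 and 4.21 CPM in KO 1, 3, 4 and 5, against 5.76, 7.97, 7.36 and 4.63 CPM in WT 2, 3, 4 and 5. The groups overlapped, as KO 3 lay among the higher WT libraries and WT 5 among the lower KO libraries. Rsad2 had a log2 fold change of -0.36 (SE 0.22, 95% interval -0.83 to 0.12; edgeR, adjusted p = 0.43). Cmpk2 did not follow Rsad2 in its direction, at 3.59 ± 0.867 CPM in KO and 3.31 ± 0.236 CPM in WT (log2 fold change 0.12, SE 0.21).

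Among the remaining effectors Ifi35 had the smallest p. Ifi35, a leucine-zipper protein that binds NMI, had 15.9, 16.2, 17.5 and 25.9 CPM in KO 1, 3, 4 and 5, against 13.6, 14.8, 12.5 and 15.8 CPM in WT 2, 3, 4 and 5. The groups did not overlap, but KO 1 exceeded WT 5 only slightly and KO 5 lay far above the other KO libraries. Ifi35, at 101448407 to 101458698 on chromosome 11, had a log2 fold change of 0.41 (SE 0.17, 95% interval 0.044 to 0.78; edgeR, adjusted p = 0.28). Without KO 5 it was 0.22 (adjusted p = 0.40), and without WT 4 it was 0.34 (adjusted p = 0.46), both at an unadjusted p above 0.05. Bst2 was at 14.7 ± 5.83 CPM in KO and 14.6 ± 3.26 CPM in WT, and its log2 fold change of 0.010 became -0.30 without KO 5. Ifi27 was at 39.3 ± 11.7 CPM in KO and 35.8 ± 1.87 CPM in WT.

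The others of that role were spread on both sides of 0. Parp14, a mono-ADP-ribosyltransferase, was at 9.39 ± 2.80 CPM in KO and 9.96 ± 0.70 CPM in WT, and Trim30a, which restrains Toll-like receptor signalling, at 3.78 ± 1.30 CPM in KO and 4.03 ± 0.463 CPM in WT. Xaf1, which promotes cell death, was at 4.65 ± 0.716 CPM in KO and 4.81 ± 0.811 CPM in WT. Ifi44 ranged from 0.438 to 1.75 CPM in KO and from 1.02 to 2.10 CPM in WT, the widest interval of the set (-1.48 to 0.42 on the log2 scale). Rtp4 was at 2.36 ± 0.467 CPM in KO and 2.12 ± 0.394 CPM in WT, and it overlaps Masp1, which had 47.9% as many reads.

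Cxcl10, a chemokine that draws T cells and a sensitive target of both interferon types, was at the limit of detection. It had 3, 1, 3 and 7 reads in KO 1, 3, 4 and 5, against 1, 5, 1 and 2 reads in WT 2, 3, 4 and 5, and was not tested. It lies over Art3, which had 3210% as many reads, so part of these few reads may belong to that gene.

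**Figure D2:**
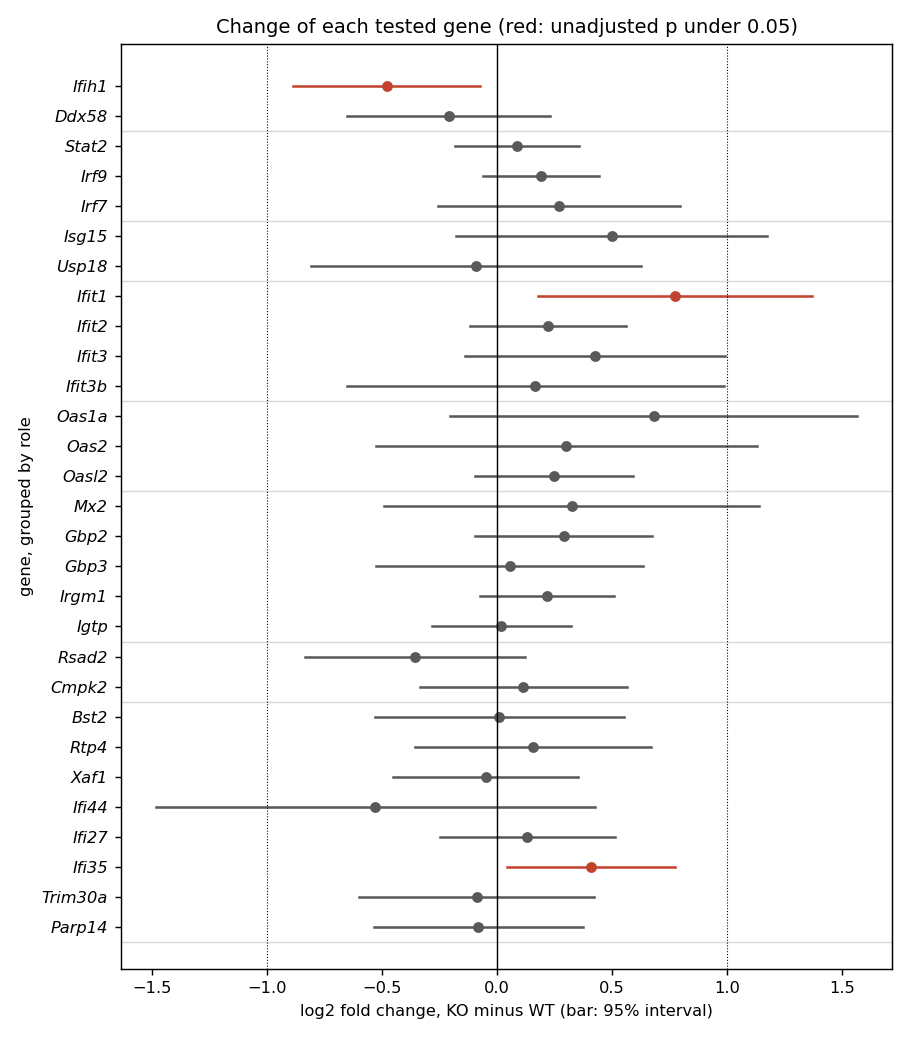
Log2 fold change, KO minus WT, of the 29 tested genes with its 95% interval, grouped by role; red marks an unadjusted p under 0.05 and dotted lines stand at -1 and 1. The intervals of Ifit1, Ifi35 and Ifih1 leave out 0, and 23 of the 29 intervals lie within -1 and 1.

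The genes did not move as a block across libraries. KO 5 was the highest of the 8 libraries for 13 of the 29 genes and the lowest for 5, while each other library was the highest for 1 to 4. The lowest value fell in WT 3 for 8 genes and in WT 4 for 6. Averaged over the 29 genes, log2 CPM relative to each gene's mean over all libraries was 0.0077, -0.024, 0.064 and 0.17 in KO 1, 3, 4 and 5, against -0.038, -0.082, -0.049 and -0.051 in WT 2, 3, 4 and 5. The KO libraries were all above the WT libraries on this average, with KO 5 the farthest up and KO 3 just above WT 2. The summed level did not separate the groups, at 193 to 246 CPM in KO and 196 to 202 CPM in WT. This sum is weighted to the most abundant genes, with Ifi27 alone at a mean of 39.3 CPM in KO and 35.8 CPM in WT.

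**Figure D3:**
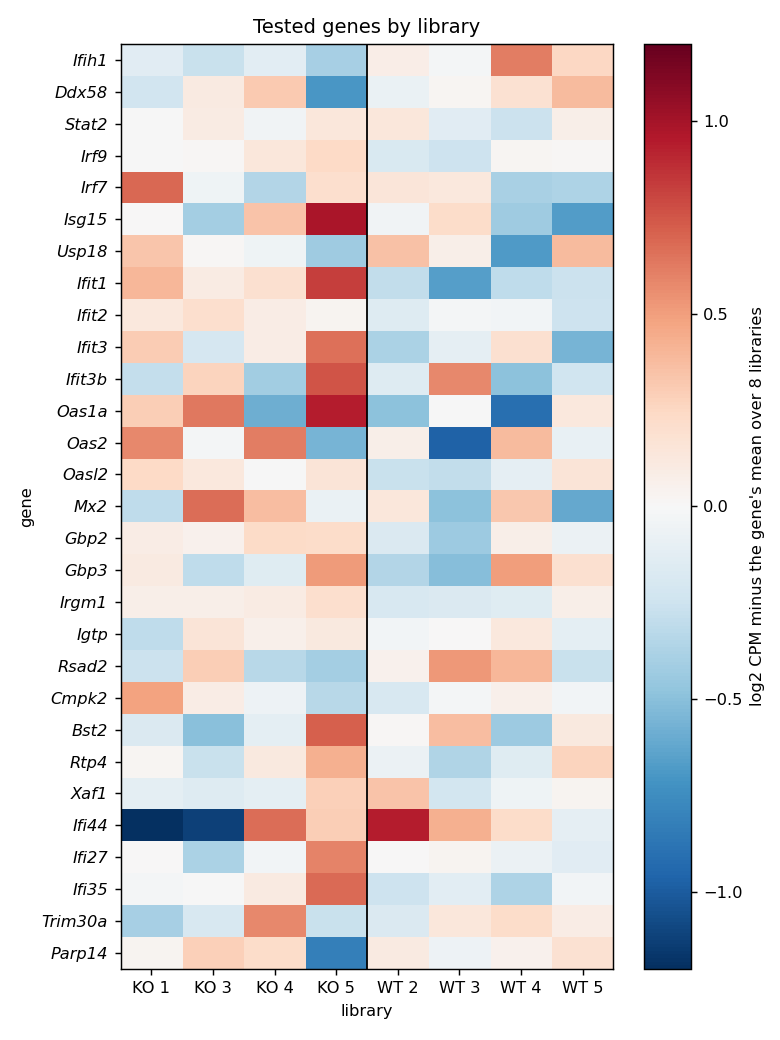
Log2 CPM of each tested gene (rows) in each library (columns, KO left of the line), minus the gene's mean over 8 libraries; colours saturate at 1.2 in either direction. In the KO 5 column Isg15, Ifit1, Oas1a and Ifi35 are high and Parp14 and Ddx58 are low, while Ifi44 is lowest in KO 1 and KO 3.

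Within KO 5 the direction followed gene length. The 3 tested genes with a deposited length under 1.5 kb, Isg15, Bst2 and Ifi27, were higher in KO 5 than in the mean of KO 1, 3 and 4 by 0.73 to 0.97 on the log2 scale, as were 8 of 9 genes of 1.5 to 3 kb, with a median of 0.57. Of the 17 genes over 3 kb, 8 were higher and 9 lower, with a median of -0.10 and Parp14 at -0.99. All genes tested showed the same order, with medians of 0.46, 0.32 and -0.13 in the same classes. Spearman's rho of this difference with length was -0.64 across the 29 genes and -0.47 across all 16205, given as a description, since genes of 1 library share its preparation and are not independent replicates. What part this had in the higher values of short members in KO was not tested. The median log2 fold change over all 29 genes, long ones included, was 0.16 as reported. It was 0.13 with the GC and length offset and 0.11 without KO 5.

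**Figure D4:**
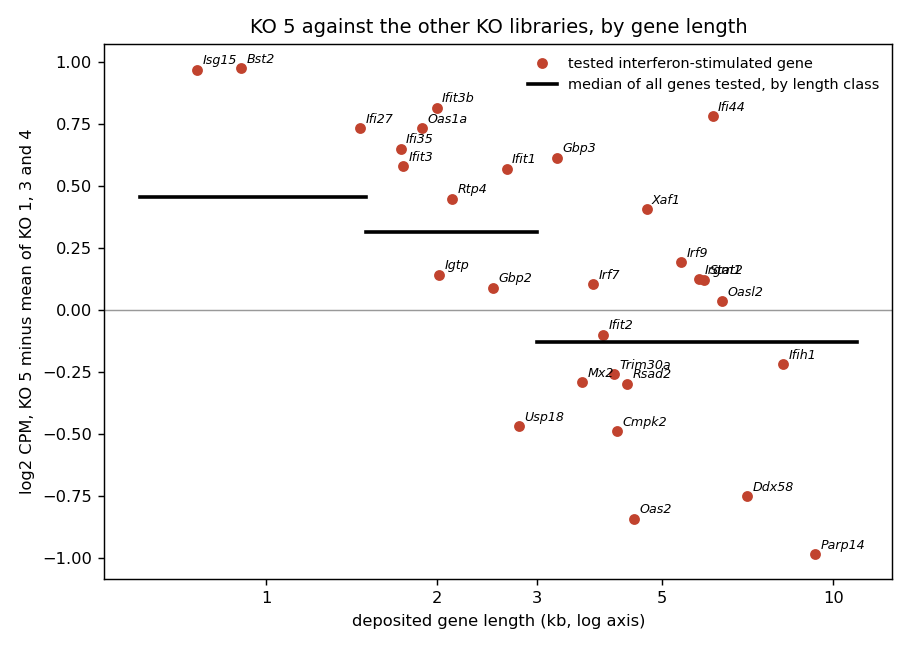
Difference in log2 CPM between KO 5 and the mean of KO 1, 3 and 4 for the 29 tested genes (points), against deposited gene length in kb (log axis), with the median of all genes tested in each of 3 length classes as black lines. The 3 genes under 1.5 kb lie above 0, as do 8 of 9 genes of 1.5 to 3 kb and 8 of 17 longer ones, among them Ifi44 at 0.78; the line of all genes falls with length.

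Interferon ligands were hardly transcribed in either group. Of 19 ligand genes looked up, including Ifnb1, the interferon alpha genes, Ifnk, Ifnl2, Ifnl3 and Ifng, 13 had no read in any library and the 19 together had 19 reads, so none was tested. Ifnk, an epithelial interferon, had the most, with 4 reads in KO and 6 in WT. Ifnk lies over Mob3b, which had 55200% as many reads, and Ifnl2 and Ifnl3, both at 0 reads, lie over Samd4b, so neither these few reads nor the zeros can be firmly assigned. All 6 receptors were tested, with log2 fold changes from -0.0027 to 0.12. Of the 6, 5 stood at percentiles from 61.4 to 87.4 of the protein-coding genes tested in RPKM, while Ifnlr1, the chain specific to type III interferon, was at 0.893 RPKM in KO and 0.891 RPKM in WT, at percentile 17.1. Ifnar1, the first chain of the type I receptor, was at 66.9 ± 3.31 CPM in KO and 64.8 ± 4.39 CPM in WT, Ifnar2 at 26.2 ± 2.76 CPM in KO and 24.1 ± 1.16 CPM in WT, and Ifngr1, of the interferon gamma receptor, at 70.8 ± 11.6 CPM in KO and 67.4 ± 4.55 CPM in WT.

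Of 158 other genes of the interferon pathway found in the table, listed with earlier results of these data known, 121 were tested and 0 passed an adjusted p of 0.05 in edgeR. At an unadjusted p of 0.05 there were 17 higher and 2 lower in KO, together 15.7% of the 121 and also 15.7% of all genes tested, where 8.7% were higher and 6.98% lower. The totals were alike, but the list leaned further to higher values than all genes did. Groups did not overlap in 10 of the 121 (8.26%), 8 higher and 2 lower, against 10.9% of all genes tested. The median log2 fold change was 0.072. Socs3, an inhibitor of JAK kinases induced mainly by cytokines that act through STAT3, had the largest change of the 121, with 26.4, 29.3, 34.7 and 55.8 CPM in KO 1, 3, 4 and 5, against 16.2, 13.5, 16.0 and 14.5 CPM in WT 2, 3, 4 and 5. Each KO library was above each WT library, and KO 5 was the highest. Its log2 fold change was 1.28 (SE 0.21; edgeR, adjusted p = 0.073), and it passed in DESeq2, limma voom and 4 of the other alternatives. Socs1, the inhibitor induced mainly by interferon, was at 6.13 ± 2.86 CPM in KO and 3.87 ± 1.01 CPM in WT, and only KO 5, at 10.4 CPM, stood above every WT library. Pias1, an inhibitor of activated STAT proteins, was at 64.5 ± 6.08 CPM in KO and 74.6 ± 8.27 CPM in WT.

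The 53 tested genes among 62 further interferon-stimulated genes were centred on 0, with a median of 0.0018, 27 above 0 and 26 below. Lgals3bp, a secreted glycoprotein, was at 21.3 ± 6.06 CPM in KO and 12.1 ± 4.17 CPM in WT, Ifitm3, which blocks virus entry, at 85.3 ± 23.7 CPM in KO and 56.2 ± 8.57 CPM in WT, and Ifitm2 at 70.6 ± 27.0 CPM in KO and 45.2 ± 7.07 CPM in WT. Their adjusted p values in edgeR were 0.18, 0.18 and 0.22. Lgals3bp and Ifitm3 passed 0.05 in limma voom, which called far more genes over the whole table than edgeR. On the other side were Gbp9, a guanylate-binding protein, at 4.34 ± 0.92 CPM in KO and 6.51 ± 1.26 CPM in WT (edgeR, adjusted p = 0.23), and Ifi203 and Trim12c, whose KO libraries were all below the WT libraries. Ifi203 was at 5.03 ± 1.35 CPM in KO and 6.75 ± 0.646 CPM in WT, and Trim12c at 13.3 ± 0.529 CPM in KO and 15.6 ± 1.01 CPM in WT. Gbp4 overlaps Gbp9 with 40.7% as many reads, and Mndal overlaps Ifi203 with 88.8%. Apol9a and Apol9b had all KO libraries above the WT libraries. Apol9a was at 1.19 ± 0.312 CPM in KO and 0.659 ± 0.0493 CPM in WT, from 12 to 32 reads a library. Apol9b was at 0.697 ± 0.119 CPM in KO and 0.349 ± 0.218 CPM in WT, from 1 to 16 reads a library. Groups did not overlap in 4 of the 53 genes (7.55%), 2 higher and 2 lower, against 10.9% of all genes tested. Gbp9, Ifi203, Trim12c, Apol9a and Apol9b were added after their values were seen. The sensors and adaptors (16 tested) had a median of -0.058, with Myd88, the main adaptor of Toll-like receptors, at 22.99 ± 4.93 CPM in KO and 18.3 ± 1.42 CPM in WT, Ticam1, the adaptor of Toll-like receptor signals to interferon, at 16.7 ± 1.82 CPM in KO and 14.6 ± 1.19 CPM in WT, and Mavs, the adaptor of both RNA sensors, at 44.5 ± 1.27 CPM in KO and 46.9 ± 4.02 CPM in WT. The interferon regulatory factors outside the set (7 tested) had a median of 0.12 and held Irf1 at 11.5 ± 2.27 CPM in KO and 9.70 ± 0.905 CPM in WT. In the same list Irf8, a factor of myeloid cells, was at 5.43 ± 0.733 CPM in KO and 4.50 ± 0.414 CPM in WT, and Irf4 of lymphoid cells at 1.79 ± 0.851 CPM in KO and 2.81 ± 0.702 CPM in WT. The restraints of self nucleic acid sensing (8 tested) had a median of 0.18, with Skiv2l at 76.5 ± 6.71 CPM in KO and 61.8 ± 4.55 CPM in WT (adjusted p = 0.22 in edgeR) and Rnaseh2b, of the enzyme that cuts RNA out of DNA, at 19.6 ± 3.02 CPM in KO and 15.6 ± 1.58 CPM in WT (adjusted p = 0.29 in edgeR). Mavs, Irf1 and H2-D1 are given for their place in the pathway and were picked after their values were seen.

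Genes of MHC class I presentation, which interferons raise in most cells, leaned to one side. Of 16 tested, 15 had a log2 fold change above 0, with a median of 0.26; 4 (25%) were at an unadjusted p under 0.05, and 0 passed the adjusted threshold in edgeR. Of all genes tested, 53.1% were above 0 and 15.7% at that unadjusted p. The summed level of the list was 616, 531, 577 and 853 CPM in KO 1, 3, 4 and 5. In WT 2, 3, 4 and 5 it was 520, 519, 495 and 556 CPM. The groups thus overlapped, with KO 3 below WT 5, and KO 5 was far above the rest. With limma voom, Tapbp and Nlrc5 of this list passed an adjusted p of 0.05. That fit called far more genes over the whole table than edgeR, with 24% of all genes at an unadjusted p under 0.05. H2-D1, a classical class I chain, had 110, 96.0, 104 and 161 CPM in KO 1, 3, 4 and 5, against 90.5, 92.1, 85.3 and 93.9 CPM in WT 2, 3, 4 and 5. The groups did not overlap, and KO 5 was far above the rest (adjusted p = 0.27 in edgeR). Nlrc5, the activator of class I genes, was at 2.04 ± 0.442 CPM in KO and 1.16 ± 0.231 CPM in WT (adjusted p = 0.21 in edgeR), and Tapbp, which loads peptide, at 114 ± 20.9 CPM in KO and 87.9 ± 5.84 CPM in WT. Psmb10, a subunit of the immunoproteasome, was at 20.4 ± 8.23 CPM in KO and 13.4 ± 1.08 CPM in WT. Among 6 tested genes of the interferon gamma and chemokine list, the class II chains H2-Aa, at 15.5 ± 3.80 CPM in KO and 10.7 ± 2.22 CPM in WT, and H2-Ab1, at 15.5 ± 6.82 CPM in KO and 10.4 ± 1.64 CPM in WT, had the smallest p.

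Markers of other cell types were also compared between the groups. Of all genes tested, 53.1% had a log2 fold change above 0. Macrophages carry much class I and class II antigen presentation. All 12 of their markers had a log2 fold change above 0, and their summed level was 281 to 378 CPM in KO and 232 to 257 CPM in WT, with KO 5 the highest; without KO 5 the KO range was 281 to 303 CPM. Of 12 oral keratinocyte markers, all were below 0 and 2 fell at an adjusted p under 0.05 in edgeR, against 0.0185% of all genes lower in KO. Their summed level was 588 to 865 CPM in KO and 743 to 1418 CPM in WT. Mesenchyme markers were all 7 above 0, at 4708 to 6906 CPM in KO and 3038 to 4913 CPM in WT. No macrophage or mesenchyme marker passed an adjusted p of 0.05 in edgeR. The 8 neutrophil markers were all below 0, with sums of 142 to 352 CPM in KO and 122 to 357 CPM in WT. Of 8 endothelium markers, 4 were above 0 and 4 below, with sums of 362.5 to 437.9 CPM in KO and 361.9 to 373.9 CPM in WT. The summed lymphocyte markers (14 genes, 5 tested) were at 15.6 to 28.8 CPM in KO and 14.3 to 25.4 CPM in WT, and the 4 markers of plasmacytoid dendritic cells, the main source of type I interferon in infection, at 6.45 to 11.6 CPM in KO and 6.56 to 9.92 CPM in WT. No marker of these lists was without reads, and of their defining genes Siglech had 79 reads in KO and 50 in WT, and Cd3e had 8 reads in KO and 14 in WT. The part of these cells in the levels of the interferon-stimulated genes was not tested.

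**Figure D5:**
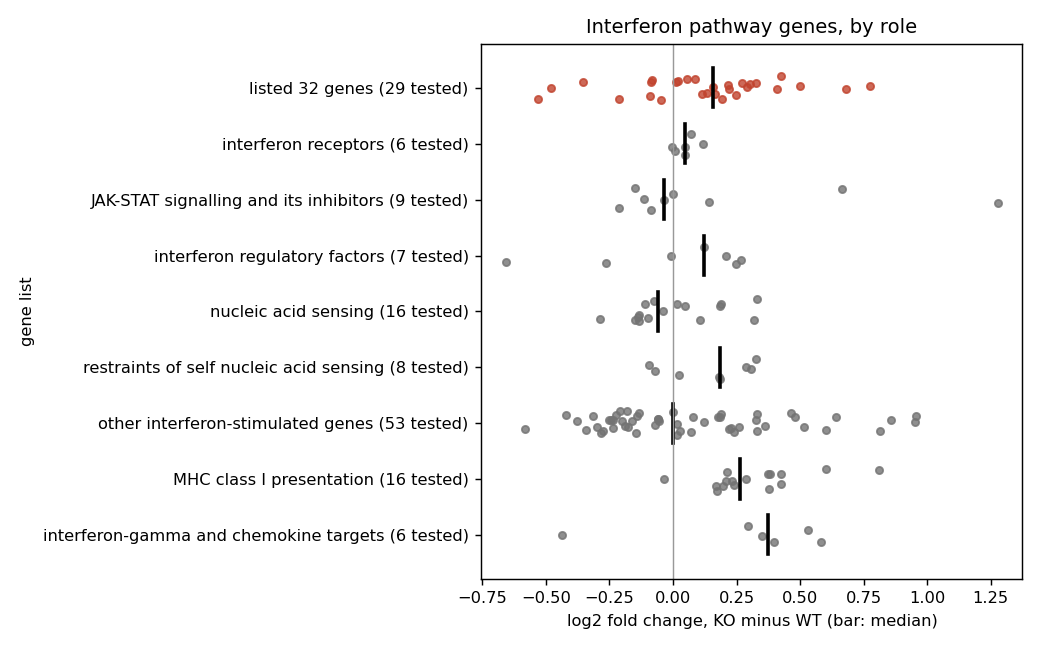
Log2 fold change, KO minus WT, of every tested gene of the set (top row, red) and of 8 further lists of the interferon pathway (grey), with the median of each list as a black bar. The medians lie between -0.058 for nucleic acid sensing and 0.37 for interferon gamma and chemokine targets, and Socs3 is the point farthest to the right at 1.28.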

How the data were processed

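The authors deposited 1 table with a raw count of reads for every Ensembl gene in 8 libraries, beside gene lengths of their own. RNA was captured by polyA and reverse transcribed, per the labels' protocols, and the submitters' processing notes name CASAVA and mm39. No aligner, counter or strand setting is given in the sources used here. The table's coordinates match GRCm38, since of 54495 gene IDs shared with GENCODE M21, 98.3% had the same start and end, as did all 32 genes of the set.

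All 8 libraries entered 1 fit, the quasi-likelihood test for KO against WT (edgeR 4.0.16, limma 3.58.1, R 4.3.3, robust, TMM factors 0.936 to 1.06, two-sided, no covariate), after filterByExpr (minimum count 10, minimum total 15) left 16205 of 54532 genes. The Benjamini-Hochberg threshold was 0.05 over all genes. SE is the size of the log2 fold change over the square root of F. Alternatives were 3 other scalings, DESeq2 1.42.0, limma voom, 2 other filters, a replicate block, libraries left out, and, chosen after seeing the data, an offset by loess on GC content and transcript length. The fits were tested on simulated data. Per-library values were given for genes with an unadjusted p under 0.05, groups apart or the smallest p of their role. Some genes of the pathway lists are not reported here by name. The 32 genes and all lists were chosen with earlier results of these data known. Levels rest on counting: intervals over libraries do not cover errors of assignment between overlapping or near-identical genes.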

Additional observations from a re-analysis of the deposited data

Results flagged for a closer look

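Single libraries that stood apart from the other 3 of their group were looked for in the 29 tested genes of the set and in 24 further pathway genes. The 24 were those with the smallest p between KO and WT in their lists. By Dixon's ratio 9 of 106 groups held such a library. The ratio's rate of about 1 in 20 by chance holds for independent groups. Genes of 1 library are not independent, so no excess is read from the count. In the set these were Xaf1 in KO 5 at 5.72 CPM (4.22 to 4.33 CPM in the other KO libraries), Ifi35 in KO 5 at 25.9 CPM (15.9 to 17.5 CPM), Rsad2 in KO 3 at 6.84 CPM (4.21 to 4.65 CPM) and Trim30a in KO 4 at 5.71 CPM (2.90 to 3.35 CPM). In WT they were Ifit1 in WT 3 at 0.811 CPM (1.04 to 1.07 CPM in the other WT libraries) and Irgm1 in WT 5 at 7.80 CPM (6.53 to 6.74 CPM). Outside the set, KO 5 stood apart in Socs1 at 10.4 CPM (4.36 to 5.11 CPM in the other KO libraries), in Myd88 at 30.3 CPM (19.8 to 21.4 CPM), which Acaa1a overlaps with 400% as many reads, and in Rnaseh2a at 28.8 CPM (19.6 to 20.7 CPM), which Prdx2 overlaps with 1370% as many reads. KO 5 thus held 5 of the 9. Its values by gene length are given above.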

How the results depend on the processing

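Under all 18 alternatives 0 of the 32 genes passed an adjusted p of 0.05, and the median log2 fold change of the set stayed between 0.10 and 0.19. Over the whole table the count of genes past 0.05, 5 as reported, was 2 with library totals, 464 with DESeq2, 1065 with limma voom, 241 with no filter, 1 with the replicate block, 11 without KO 1 and KO 5, 21 with the GC and length offset and 0 to 55 with single libraries left out. It was 0 without KO 3, KO 4, WT 2 or WT 3, 16 without WT 4 and 55 without KO 5. The 2 genes of the set higher at an unadjusted p of 0.05 were 5 with voom, 4 with the offset, 0 with the replicate block, 0 without KO 1 and KO 5 and 0 to 3 with single libraries left out (0 without KO 5, 1 without WT 2 or WT 4). The 1 lower gene was 0 with the block, 0 without KO 1 and KO 5, 0 with the offset, and 0 to 2 with single libraries left out (0 without WT 4, 2 without KO 3 or WT 5). With voom the 1 lower gene was Rsad2 (-0.44), and Ifih1 (-0.30) was no longer at that level. Of the other pathway genes, 1 passed with DESeq2, no filter, KO 1 and KO 5 left out, or the offset, and 5 with voom (Tapbp, Ifitm3, Socs3, Lgals3bp and Nlrc5), and 0 to 1 with single libraries left out (1 without KO 5), where Socs3 was the 1. Replicate numbers 3, 4 and 5 occur in both groups, but the labels do not say that they pair libraries, and the correlations of same-numbered deviations were -0.14, -0.092 and -0.12, so the block result rests on 6 libraries that share only a number.

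No gene of the set passed in any alternative, and 16 of 29 genes kept their sign in all that were run. For the other 13, whose reported values were small, the cause of the turn was not tested. With voom the values were 0.056 for Ddx58, -0.039 for Irf7, -0.29 for Ifit3b, -0.33 for Bst2, -0.086 for Ifi27, 0.082 for Trim30a and 0.13 for Parp14. Without KO 1 and KO 5 they were 0.077 for Ddx58, -0.095 for Irf7, -0.025 for Ifit3b, -0.24 for Gbp3, -0.34 for Bst2, -0.00068 for Rtp4, -0.16 for Ifi27, 0.16 for Trim30a and 0.18 for Parp14. With the block they were -0.045 for Gbp3, -0.099 for Cmpk2 and 0.089 for Xaf1. With the offset they were -0.019 for Igtp, -0.16 for Bst2, 0.067 for Trim30a and 0.024 for Parp14. Bst2 was at -0.0031 with DESeq2 size factors, -0.0024 with the upper quartile, -0.052 with library totals and -0.0024 with DESeq2, and Igtp at -0.028 with library totals. With single libraries left out the ranges were -0.045 to 0.23 for Cmpk2, -0.36 to 0.020 for Trim30a, -0.036 to 0.11 for Igtp, -0.29 to 0.022 for Usp18, -0.096 to 0.44 for Ifit3b, -0.13 to 0.26 for Gbp3, -0.30 to 0.15 for Bst2, -0.084 to 0.25 for Ifi27, -0.20 to 0.11 for Parp14 and -0.16 to 0.055 for Xaf1. Depth limits the genes under 1 CPM, whose counts in a library were low. The filter of 1 CPM in 4 libraries left 24 of the 32 genes to test.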
